A study of Rattus norvegicus with 183 samples.

Results

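Slc32a1 encodes the transporter that loads GABA and glycine into synaptic vesicles, and the 30 libraries with the most and the 30 with the fewest Slc32a1 counts were compared in the posterior ventral tegmental area of outbred heterogeneous stock rats. The high and the low side were drawn from the 141 of 152 libraries with at least 10 CPM (counts per 1e6 estimated counts of the library) of Th, the gene of the rate-limiting enzyme of dopamine synthesis, ranked by Slc32a1 CPM. The other 81 libraries with Th belong to neither side, and the 11 libraries below 10 CPM of Th (1.33 to 3.47 CPM, Slc32a1 75.8 to 89.6 CPM) were left out by the rule. PolyA RNA was sequenced, 1 library for each sample. The labels give the same tissue for every library and name no treatment, strain within the stock, sex or age. No labelled condition therefore sets the sides apart, and the labels cannot show an unlabelled one. Beyond notes on relabelling, sample titles differ just in the form of the animal identifier, which is decimal in 11, hexadecimal in 18 and of another form in 1 of the high libraries, against 15 decimal and 15 hexadecimal low libraries.

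GABA neurons make their transmitter with the glutamate decarboxylases encoded by Gad1 and Gad2, load it with the product of Slc32a1 and break it down with the transaminase encoded by Abat. In the ventral tegmental area they lie among dopamine and glutamate neurons, inhibit the dopamine neurons nearby and project to distant targets. GABA neurons are also a main cell type of the interpeduncular nucleus, which borders the posterior ventral tegmental area at the midline.

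The libraries were chosen by their Slc32a1 CPM, so the values of that gene are given without a test. The high libraries had a lowest value of 236, a median of 260.4 and a highest value of 357 CPM, against 49.97, 140.4 and 163 CPM in the low libraries. At the threshold, the last library inside the high side had 236 CPM and the next outside it 233 CPM, and the last inside the low side had 163 CPM and the next outside it 164 CPM. The sides are thus the ends of a continuous range, and hexadecimal replicate 25 of the low side (49.97 CPM) lies well below every other library. In bulk tissue, fewer cells of a type and less RNA per cell cannot be told apart, and a difference between animals cannot be told apart from a difference in the piece of tissue taken.

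The regions around the starts of Slc32a1, Gad1 and Gad2 are shown because Slc32a1 and Gad1 varied together between the libraries while Gad2 did not pass the test. They were taken from RefSeq on the GRCr8 build, plus strand, from 250 bases before to 50 bases after the gene start of that table, and the capitals mark the only match to the letters TATAAA on either strand. The windows lie at chr3:167686995-167687294 for Slc32a1, chr3:75777202-75777501 for Gad1 and chr17:89671468-89671767 for Gad2.
Slc32a1: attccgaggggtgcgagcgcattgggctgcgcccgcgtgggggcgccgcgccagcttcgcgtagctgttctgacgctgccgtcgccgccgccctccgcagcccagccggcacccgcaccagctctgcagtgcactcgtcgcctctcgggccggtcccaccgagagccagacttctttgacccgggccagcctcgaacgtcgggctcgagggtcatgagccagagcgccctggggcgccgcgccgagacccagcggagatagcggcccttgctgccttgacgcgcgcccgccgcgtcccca
Gad1: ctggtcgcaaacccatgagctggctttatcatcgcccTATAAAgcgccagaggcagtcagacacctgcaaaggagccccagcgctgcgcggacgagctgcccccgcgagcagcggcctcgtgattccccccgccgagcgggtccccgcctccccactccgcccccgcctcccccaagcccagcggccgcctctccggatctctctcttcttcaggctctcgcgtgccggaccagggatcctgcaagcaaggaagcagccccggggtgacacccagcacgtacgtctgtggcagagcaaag
Gad2: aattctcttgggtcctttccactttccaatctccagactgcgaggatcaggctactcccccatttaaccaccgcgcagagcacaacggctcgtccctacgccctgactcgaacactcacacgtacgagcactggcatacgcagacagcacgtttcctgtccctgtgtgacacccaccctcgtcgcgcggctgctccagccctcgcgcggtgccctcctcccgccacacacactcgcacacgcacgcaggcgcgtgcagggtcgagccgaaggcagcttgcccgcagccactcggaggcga
G and C made up 73.7% of the Slc32a1 window, 67.7% of the Gad1 window and 63.7% of the Gad2 window. The TATAAA of the Gad1 window ends 16 bases before the position the deposited table gives for that gene (75777260), which lies inside the window. That position lies before the gene start used for the Gad1 window. For Slc32a1 (167687245) and Gad2 (89671718) the 2 are the same, so the 3 windows are not placed alike around the deposited positions. Of all 33469 RefSeq windows of this kind 14.2% hold TATAAA on either strand. None of the 3 windows holds, on either strand, the GATA protein letters AGATAA (present in 11.6% of all windows), the basic helix-loop-helix letters CAGCTG (15.1%) or the homeodomain letters TAATTA (5.36%). TATAAA was searched after the sequences had been read.

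Of the 15545 genes tested, 5108 (32.9%) differed between high and low libraries, 3666 higher (23.6%) and 1442 lower (9.28%) in the high side. Differences are given as high minus low on the log2(CPM + 1) scale with their standard error, from limma with identifier format as a covariate and Benjamini-Hochberg adjustment over all genes tested, and a gene is called at an adjusted p below 0.05. The median of all genes was shifted by 0.06 toward the high side. After scaling by median of ratios this shift was 0.00 and the split turned, with 2161 genes higher and 2438 lower, so that 46.99% of calls were higher, against 71.8% with CPM. No gene other than Slc32a1 had sides that did not overlap (0 of 15545). The test asks only whether a gene moves with Slc32a1 between libraries picked at its extremes.

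Gad1 was higher in the high side. Its CPM ran from 194 through a median of 426 to 614 in high libraries, against 49.5, 167 and 320.5 in low libraries. The sides overlapped little, with 25 of 30 high libraries above every low library. The difference was 1.38 ± 0.13 (SE, from 29 high and 30 low libraries, since the high library of another identifier form had its own level in the fit, limma adjusted p = 7.54e-12), or 2.60-fold on the CPM + 1 scale, and it was 1.54 within decimal and 1.25 within hexadecimal identifiers.

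Gad2 did not pass the test. Its CPM ran from 12.1 through a median of 90.6 to 203 in high libraries, against 7.92, 91.5 and 139.6 in low libraries. The medians were nearly equal and both sides had a tail of low libraries, with 5 high and 10 low libraries below 50 CPM. The difference was 0.56 ± 0.24 (limma adjusted p = 0.0681). By identifier format, 9 hexadecimal and 1 decimal libraries of neither side were below 50 CPM. On the sides these were 4 hexadecimal and 0 decimal high libraries, and 9 hexadecimal and 1 decimal low libraries. The link of this tail to identifier format was not tested. A score of 14 nuclear genes of oxidative phosphorylation, the mean of their z-scores, was high in most of these libraries. It lay between 0.60 and 1.81 in the 5 high and between 0.43 and 2.51 in the 10 low libraries under 50 CPM of Gad2, while the highest score among libraries with more Gad2 was 0.73 in the high side and 0.81 in the low side. Of the 81 libraries of neither side 10 had less than 50 CPM of Gad2, with scores of 0.76 or more in 9 of them and -0.84 in decimal replicate 6 (49.2 CPM of Gad2), and libraries of neither side with more Gad2 reached a score of 1.26. With that score as a further covariate the Gad2 difference was 0.08 (limma adjusted p = 0.789), while that of Gad1 was 1.27 (limma adjusted p = 2.81e-10).

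**Figure D1:**
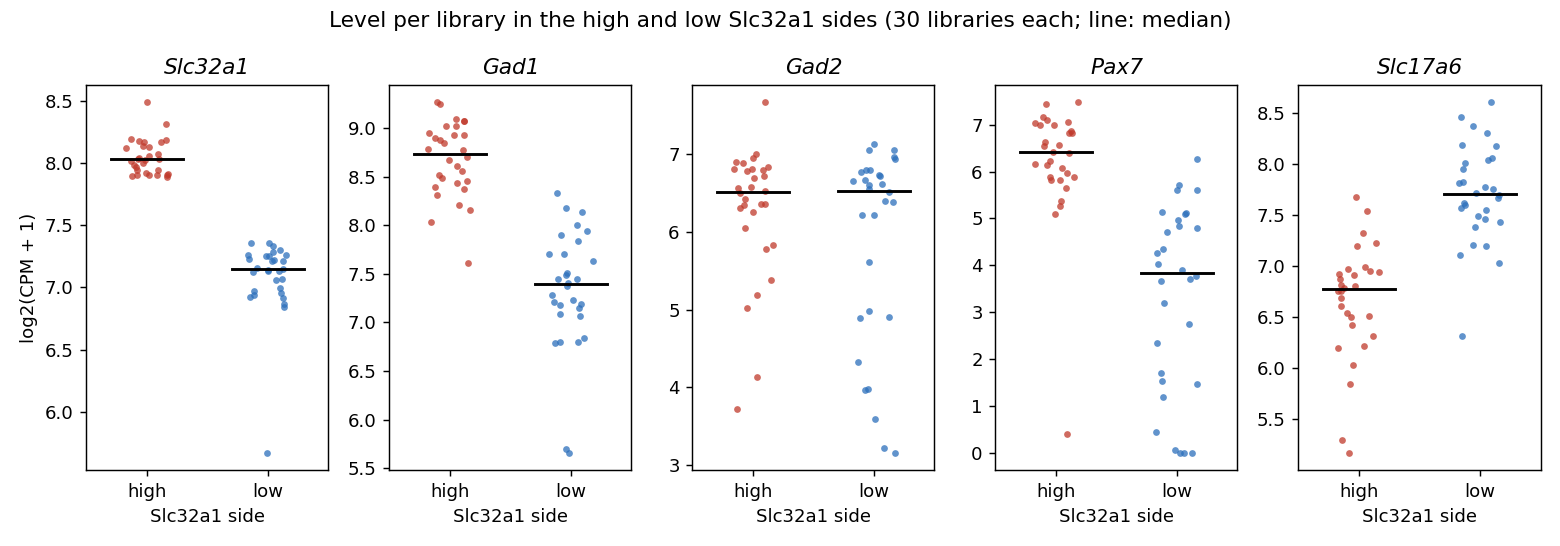
Level of 5 genes in each library, as log2(CPM + 1), with the high Slc32a1 side left (red) and the low side right (blue); each point is 1 of 30 libraries a side and the line is the median. Slc32a1 chose the sides, Gad1 is higher in nearly every high library, the Gad2 medians are level with low tails on both sides, and Slc17a6 runs the other way.

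**Figure D2:**
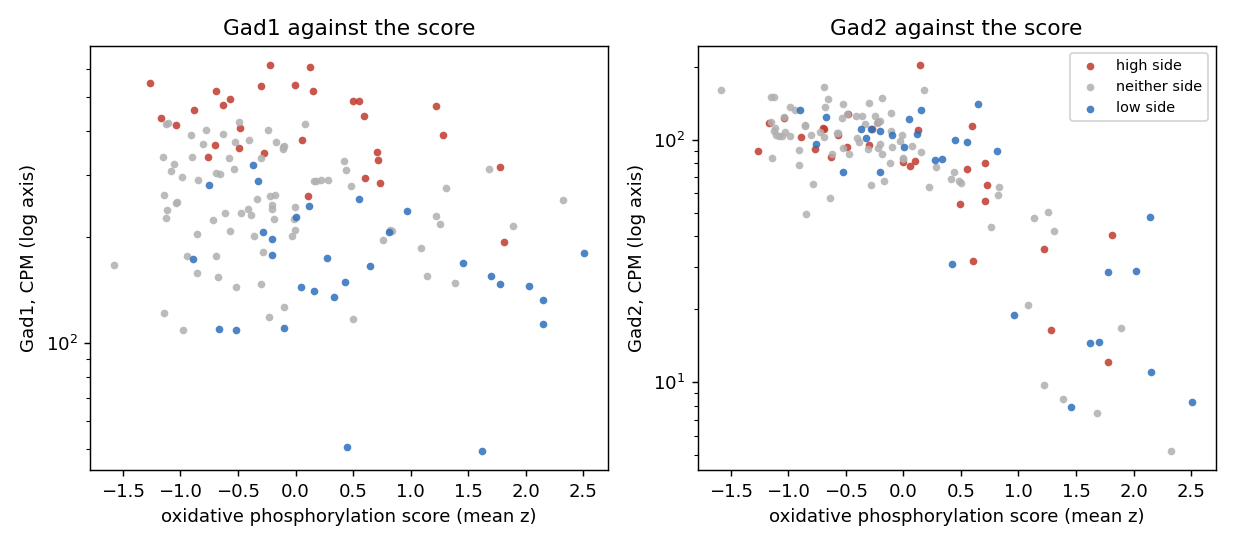
Gad1 (left) and Gad2 (right) CPM on a log axis against the score of 14 oxidative phosphorylation genes (mean z-score) in the 141 libraries with Th; red points are the high side, grey points neither side and blue points the low side. Gad2 below 50 CPM occurs in 5 high and 10 low libraries, each with a score of at least 0.43, and in 10 grey libraries, of which 1 has a score of -0.84.

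The breakdown gene Abat was higher too. It had a median of 557 CPM in high and 484 CPM in low libraries, and the sides overlapped widely (0.25 ± 0.05, limma adjusted p = 0.00043). Of 10 genes of astrocytic uptake and of glutamine and GABA metabolism, 3 were higher and 1 lower. These shares are near those of all genes (23.6% higher and 9.28% lower). The glutamine transporter gene Slc38a1 was higher by 0.24, and Glul, which encodes the glutamine synthetase of astrocytes, was lower (-0.25 ± 0.06, limma adjusted p = 0.00163). After median of ratios scaling 1 of the 10 was higher and 1 lower.

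Transcription factors of midbrain and hindbrain GABA neurons were mostly higher. Of 16 listed genes 14 were measured well enough to be tested, and 10 were higher and 0 lower (median 0.46). The counts of this list were the same under median of ratios scaling. Among all genes tested 23.6% were higher and 9.28% lower with CPM. Selector genes that switch midbrain precursors to the GABA fate were higher by modest amounts, with 0.29 ± 0.08 for Gata2, 0.45 ± 0.14 for Gata3, 0.48 ± 0.09 for Tal1 and 0.33 and 0.48 for their cofactors Zfpm1 and Zfpm2. Gata3 had a median of 8.90 CPM in high and 7.20 CPM in low libraries, the sides overlapped widely, and the gene did not pass within either identifier format alone or with 40 libraries a side (0.28, limma adjusted p = 0.0788). Larger differences were found for Sox14, a factor of GABA neurons that settle in the tegmentum and thalamus in the mouse, and for the LIM homeodomain genes Lhx1 and Lhx5. Sox14 ran from 5.59 through 9.62 to 19.5 CPM in high libraries, against 0.18, 4.23 and 10.5 CPM in low libraries (1.11 ± 0.15, limma adjusted p = 1.06e-07). Lhx5 ran from 8.02 through 20.1 to 34.1 CPM in high libraries, against 1.43, 5.96 and 16.5 CPM in low libraries (1.51 ± 0.15, limma adjusted p = 7.94e-11). Every high library was above the low median for both genes. Lhx1 was higher by 0.91 and the paired-box gene Pax5 by 0.83.

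Pax7 and Pax3 differed by more. Pax7, a gene of the dorsal neural tube that is also expressed by interpeduncular neurons in chick and mouse, ran from 0.32 through a median of 84.2 to 177 CPM in high libraries, against 0, 13.3 and 76.02 CPM in low libraries. It was the largest positive difference of the comparison (2.91 ± 0.43, limma adjusted p = 5.21e-07). Its relative Pax3 had a median of 8.21 CPM in high and 1.03 CPM in low libraries (2.01 ± 0.20, limma adjusted p = 2.56e-11). Pax7 was below 1 CPM in 5 low libraries and in 1 high library. That library, decimal replicate 18, has 261 CPM of Slc32a1, 517 CPM of Gad1 and the highest Gad2 of the high side (203 CPM), together with 23.5 CPM of Gata3, the highest of both sides, but only 0.32 CPM of Pax7, 0.08 CPM of Otp and 0.62 CPM of Chrna2. High Slc32a1 thus occurred in 1 library with Pax7, Otp and Chrna2 all below 1 CPM. Without it 5369 genes were called, 3871 higher and 1498 lower.

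Forebrain GABA factors were near the detection limit on both sides. Of 12 listed genes 9 did not reach the mean needed for a test, among them Dlx1, Dlx2, Dlx5, Dlx6 and Lhx6, none of which had a median above 0.30 CPM on either side. Meis2, a TALE homeodomain gene that is not particular to the forebrain, was higher (medians of 39.4 CPM in high and 15.5 CPM in low libraries, 1.33 ± 0.15, limma adjusted p = 1.42e-09), Sox6 was higher by 0.50 and Npas1 was lower (-0.55 ± 0.14).

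Many neuropeptide and subtype genes of GABA neurons were higher. Of 20 listed genes 19 were tested, and 10 were higher and 2 lower (median 0.50), against 23.6% and 9.28% of all genes. Among those higher were 3 precursor genes of opioid-family peptides. Penk, which encodes proenkephalin, ran from 49.9 through 101 to 187 CPM in high libraries, against 11.4, 38.8 and 79.9 CPM in low libraries (1.31 ± 0.15, limma adjusted p = 1.32e-09), with 22 of 30 high libraries above every low one. Pnoc, the precursor gene of nociceptin, ran from 13.1 through 34.3 to 58.8 CPM in high libraries, against 2.97, 13.2 and 27.5 CPM in low libraries (1.45 ± 0.16, limma adjusted p = 1.05e-09). Pdyn, the prodynorphin gene, was higher by 0.69. For these peptides the overlap between sides was small for Pnoc and Penk and wide for Pdyn.

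Nos1, the gene of neuronal nitric oxide synthase, had a median of 142 CPM in high and 56.03 CPM in low libraries (1.22 ± 0.17, limma adjusted p = 1.79e-07). Somatostatin (Sst) had 43.2 CPM in high and 16.6 CPM in low libraries at the median (1.20 ± 0.22, limma adjusted p = 3.77e-05). Kit was higher by 0.96, Vip by 0.79, Gal by 0.68, Npy by 0.65 and Tac1 by 0.50. The parvalbumin gene Pvalb went the other way, from 36.4 through 60.8 to 191 CPM in high libraries, against 36.4, 128 and 396 CPM in low libraries (-0.94 ± 0.18, limma adjusted p = 4.69e-05). Only 2 of 30 high libraries lay above the low median of Pvalb, although both sides start at the same level. Npsr1, the neuropeptide S receptor gene, was also lower (-0.65 ± 0.16). Neither Cck (219 CPM in high and 244.5 CPM in low libraries at the median), Calb1 (145 CPM in high and 162 CPM in low libraries) nor Calb2 (438 CPM in high and 425 CPM in low libraries) passed the test, and Calb1 was lower with an interpeduncular score (the mean z-score of the 6 tested interpeduncular or habenular genes) as a further covariate (-0.56, limma adjusted p = 0.00016).

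Slc32a1 also loads glycine. Slc6a5, the transporter gene that marks glycine neurons, had a median of 12.7 CPM in high and 4.67 CPM in low libraries (1.20 ± 0.19, limma adjusted p = 2.69e-06), and 29 of 30 high libraries were above the low median. Of 7 glycine genes 2 were higher, Slc6a5 and the receptor subunit gene Glra3 (0.50), and 2 were lower, the subunit genes Glra1 (-0.50) and Glrb (-0.23), against 23.6% higher and 9.28% lower among all genes. With the interpeduncular score as a covariate 1 was higher, Slc6a5 (0.60, limma adjusted p = 0.00365), and 1 lower, while Glra3, Glra1 and Glrb did not pass. The glial transporter gene Slc6a9 was at 313 CPM in high and 314 CPM in low libraries at the median and did not pass.

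Of 14 tested GABA-A subunit genes 4 were higher and 2 lower (median 0.11), shares near those of all genes (23.6% and 9.28%). After median of ratios scaling 3 were higher and 3 lower, and with the interpeduncular score as a covariate 1 and 1. With the interpeduncular, oxidative phosphorylation and Y-linked scores together 3 were higher and 5 lower. Of all 15545 genes 1925 were higher and 1151 lower in that fit, so the share lower was larger among these subunits. Gabrb2, which encodes a beta subunit of synaptic receptors, was among the 2 lower without these scores. Its median was 137 CPM in high and 181 CPM in low libraries (-0.38 ± 0.11, limma adjusted p = 0.00502). Gabrd, the delta subunit gene of extrasynaptic receptors, was higher (medians of 5.36 CPM in high and 1.44 CPM in low libraries, 0.99 ± 0.17, limma adjusted p = 9.1e-06), as were Gabrq (0.48), Gabra2 (0.27) and Gabra3 (0.20). Gabrd still passed with the interpeduncular score (0.77, limma adjusted p = 0.00299), while Gabrb2, Gabrq, Gabra2 and Gabra3 did not. The GABA-B receptor genes Gabbr1 (1146 CPM in high and 1057 CPM in low libraries) and Gabbr2 (209 CPM in high and 204.5 CPM in low libraries) did not pass, while 3 genes of auxiliary KCTD subunits, which shape the time course of GABA-B signalling, did. Kctd12 ran from 46.8 through 81.7 to 122 CPM in high libraries, against 29.7, 45.2 and 69.9 CPM in low libraries (0.84 ± 0.09, limma adjusted p = 7.94e-11), Kctd8 was higher by 0.88 and Kctd16 by 0.38. Of the GIRK channel genes, Kcnj9 was higher by 0.41 and Kcnj6, which dopamine neurons use, did not pass (105.5 CPM in high and 108 CPM in low libraries).

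**Figure D3:**
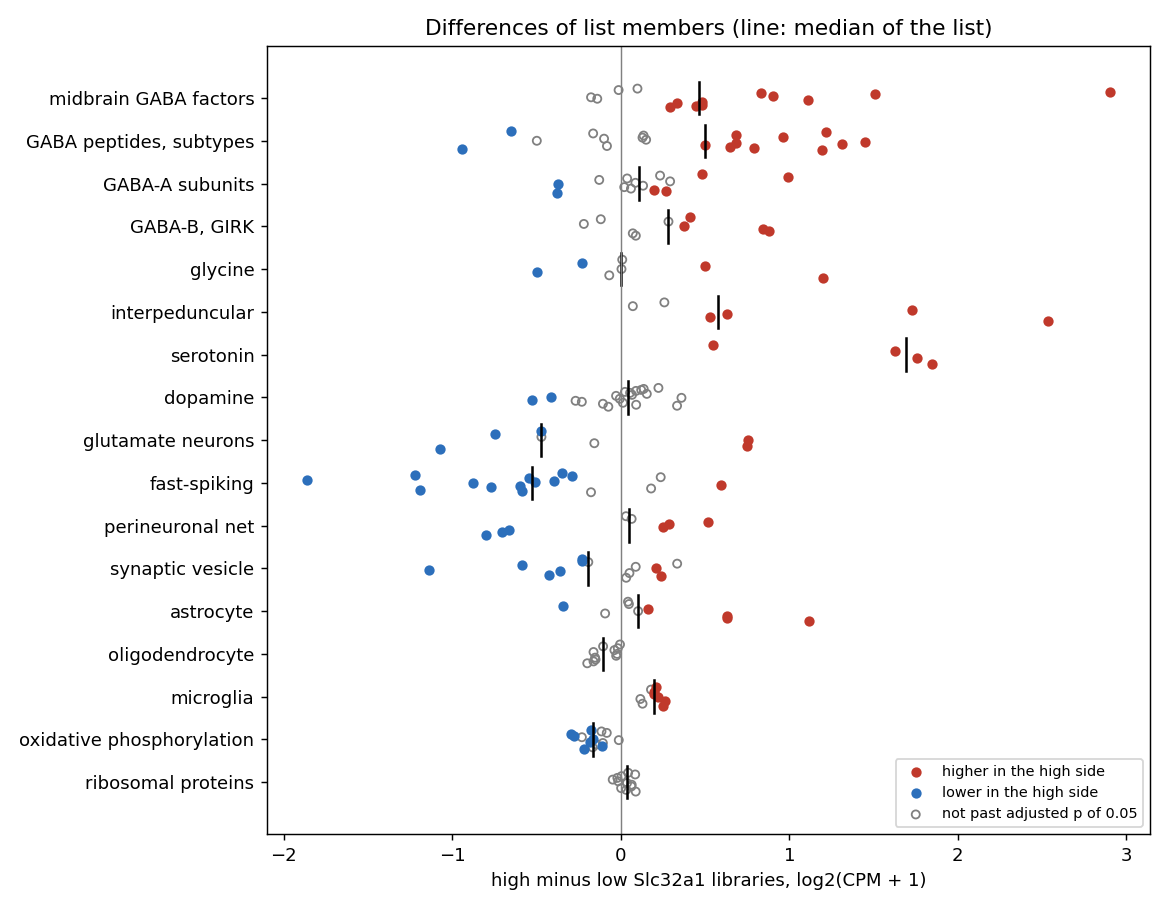
Difference between the 30 high and the 30 low Slc32a1 libraries (x axis, log2(CPM + 1)) for each tested member of 17 gene lists (rows); red points were higher and blue points lower at an adjusted p below 0.05, open grey points did not pass, and the black line is the list's median. Midbrain GABA factors, peptides, interpeduncular and serotonin genes lie to the right, and fast-spiking, glutamate and part of the vesicle genes to the left.

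The largest positive differences were not those of GABA synthesis genes. A rule took the 15 largest called differences whose sign was shared by decimal and hexadecimal libraries, and among them were Pax7, Epyc, Chrna2, Otp, Cacng5, Nhlh1 and Pax3. Chrna2, a nicotinic receptor subunit gene of the interpeduncular nucleus in rodents, ran from 0.62 through 42.95 to 113.7 CPM in high libraries, against 0, 6.75 and 53.7 CPM in low libraries (2.53 ± 0.39, limma adjusted p = 9.01e-07). Otp, a homeodomain gene, ran from 0.08 through 18.4 to 30.0 CPM in high libraries, against 0, 1.84 and 14.1 CPM in low libraries (2.52 ± 0.26, limma adjusted p = 1.1e-10). In each case 29 of 30 high libraries were above the low median, and decimal replicate 18 was the exception.

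Epyc, the gene of a small leucine-rich proteoglycan, had a median of 32.8 CPM in high and 4.01 CPM in low libraries (2.87 ± 0.36). Cacng5, an auxiliary subunit gene of AMPA receptors, had a median of 75.01 CPM in high and 16.1 CPM in low libraries (2.16 ± 0.26). The nicotinic subunit gene Chrnb4 was at a median of 25.7 CPM in high and 7.43 CPM in low libraries (1.73 ± 0.27), and the 15 also held the helix-loop-helix gene Nhlh1 (2.13), the myosin chaperone gene Unc45b (1.42), Pnoc, Lhx5 and 3 genes of serotonin signalling. Of 6 tested genes on the interpeduncular or habenular list 4 were higher and 0 lower (median 0.58), against 23.6% and 9.28% of all genes. Its summed level ran from 52.2 through 206 to 369 CPM in high libraries, against 36.3, 98.6 and 252 CPM in low libraries, and none of its measured members was at 0 in all 60 libraries. Since interpeduncular markers moved with Slc32a1 and Gad2 did not pass, the sides are called here by their Slc32a1 level and not as more or fewer GABA neurons of the ventral tegmental area.

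With the interpeduncular score, which includes Chrna2 and Chrnb4, as a further covariate, 1880 genes were called in place of 5108. Of the 15545 genes tested, 1230 were higher and 650 lower in this fit. Gad1 then differed by 1.14 (limma adjusted p = 1.7e-08), Penk by 1.07 and Slc17a6 by -0.93, while Pax7 moved to 1.42 and Chrnb4 to 0.81. Pax5 and Slc38a1 no longer passed (0.25 and 0.09), nor did Glul, Npas1, Vip, Kctd16, Kcnj9 and Vamp2 (limma adjusted p of 0.104 to 0.398). Of the peptide and subtype genes 9 were then higher and 4 lower, of the fast-spiking genes 2 higher and 7 lower, and of the vesicle genes 0 higher and 4 lower. Gata2 and Gata3 moved up, to 0.42 and 0.75. The score itself had a median of 0.45 in high and -0.57 in low libraries.

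Serotonin neuron genes were higher, with the upper tail in a few high libraries. Tph2, which encodes the serotonin synthesis enzyme of neurons, ran from 1.16 through a median of 6.78 to 160.0 CPM in high libraries, against 0.18, 1.46 and 13.6 CPM in low libraries (1.85 ± 0.35, limma adjusted p = 4.3e-05). It exceeded 10 CPM in 9 high libraries and 1 low library, while 26 of 30 high libraries were above the low median. The serotonin transporter gene Slc6a4 behaved alike (medians of 4.15 CPM in high and 0.53 CPM in low libraries, 1.76 ± 0.33, limma adjusted p = 4.71e-05). Within decimal identifiers alone neither passed (1.25 and 1.29). Htr1a, the gene of a serotonin receptor that many non-serotonin neurons carry, had less overlap (medians of 53.5 CPM in high and 16.0 CPM in low libraries, 1.63 ± 0.17, limma adjusted p = 7.94e-11), with 21 of 30 high libraries above every low one. All 4 tested genes of the list were higher, against 23.6% of all genes. The list's summed level, untested genes included, ran from 17.6 to 306 CPM in high and from 8.51 to 53.5 CPM in low libraries. Without the libraries above 10 CPM of Tph2, Gad1 differed by 1.36 and 3717 genes were called.

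**Figure D4:**
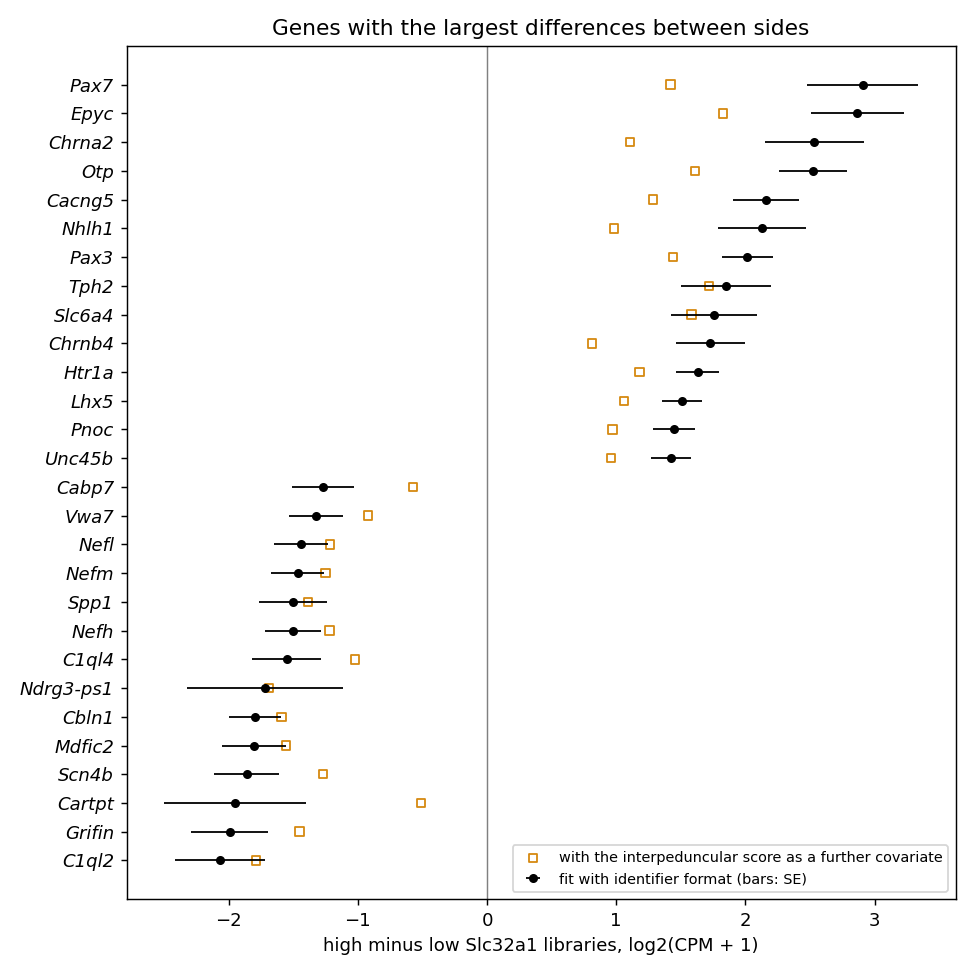
Leading positive and negative called differences between high and low Slc32a1 libraries (x axis, log2(CPM + 1)); black points with bars are the differences with their standard errors, and open orange squares the values with the interpeduncular score as a further covariate. Pax7, Epyc, Chrna2 and Otp lead at the top, C1ql2, Grifin and Cartpt at the bottom, and most squares lie nearer to 0 than their points.

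Slc17a6, the neurofilament genes and most channel genes of fast-spiking neurons were lower in the high side. Slc17a6, which encodes the vesicular glutamate transporter of midbrain neurons, ran from 35.1 through 108.5 to 204 CPM in high libraries, against 78.6, 208 and 388 CPM in low libraries (-1.07 ± 0.13, limma adjusted p = 1.5e-08). None of the 30 high libraries reached the low median. Of 7 tested glutamate neuron genes 3 were lower, Slc17a6, Nrn1 (-0.75) and the PACAP gene Adcyap1 (-0.47), against 9.28% of all genes. The 2 that were higher, a share near the 23.6% of all genes, were Tcf7l2 (0.76) and Slc17a8 (0.75). Slc17a8 encodes a vesicular glutamate transporter that serotonin neurons also use.

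The 3 neurofilament genes encode the axonal cytoskeleton of large neurons. Nefh, which encodes the heavy chain, ran from 198 through 296 to 1588 CPM in high libraries, against 277, 1036 and 3594 CPM in low libraries (-1.50 ± 0.22, limma adjusted p = 3.56e-07), Nefm differed by -1.46 and Nefl by -1.44. For each of them 1 of 30 high libraries lay above the low median. Scn4b, a sodium channel subunit gene of neurons with resurgent current, had a median of 43.1 CPM in high and 178 CPM in low libraries (-1.86 ± 0.26, limma adjusted p = 1.13e-07). Of 16 channel and release genes of fast-spiking neurons 12 were lower and 1 was higher (median -0.53), against 9.28% and 23.6% of all genes. After median of ratios scaling the counts of this list were the same. Among those lower were Syt2 (-1.22), Kcns3 (-0.88) and Kcna1 (-0.77), and the exception was the potassium channel subunit gene Kcnab3 (0.59).

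The other leading genes of the low side had varied roles. C1ql2, which encodes a secreted synaptic protein and was the most negative difference, ran from 3.27 through 20.7 to 181 CPM in high libraries, against 4.62, 84.6 and 254 CPM in low libraries (-2.07 ± 0.35, limma adjusted p = 6.79e-06), and its relatives C1ql4 (-1.55) and Cbln1 (-1.79 ± 0.20, limma adjusted p = 1.24e-09) were lower too. Grifin, a galectin-related gene known from the lens, differed by -1.99 and the osteopontin gene Spp1 by -1.50. Cartpt, the CART peptide gene, had a median of 2.50 CPM in high and 12.2 CPM in low libraries but reached 594 CPM in a high and 613 CPM in a low library (-1.95 ± 0.55, limma adjusted p = 0.00458), and the 594 CPM belong to decimal replicate 18. It did not pass within decimal or within hexadecimal identifiers alone, nor with the interpeduncular score as a covariate (-0.51, limma adjusted p = 0.555). Ndrg3-ps1 (-1.72 ± 0.61) is annotated as a pseudogene and its counts are uncertain, since reads of its parent gene could be shared with it, and it did not pass within either identifier format alone. Also among the 15 were Mdfic2 (-1.80), Vwa7 (-1.32) and the calcium-binding protein gene Cabp7 (-1.27).

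Of 8 perineuronal net genes 3 were higher and 3 lower, against 23.6% higher and 9.28% lower among all genes. Acan (-0.80), Hapln1 (-0.70) and Hapln4 (-0.66) were lower, and Ncan (0.52), Bcan (0.29) and Tnr (0.25) were higher, of which Tnr did not pass under median of ratios scaling. With the interpeduncular score as a covariate 1 was higher, Bcan (0.36), and 1 lower, Acan (-0.52). Of all 15545 genes 1230 were higher and 650 lower in that fit. Of 13 synaptic vesicle and release genes 2 were higher and 6 lower (median -0.19). Vamp1, the synaptobrevin gene of fast-firing neurons, was lower by the most (medians of 357 CPM in high and 890 CPM in low libraries, -1.14 ± 0.15, limma adjusted p = 3.24e-08), while Vamp2 was higher (960.2 CPM in high and 839 CPM in low libraries, 0.21 ± 0.06, limma adjusted p = 0.00519) with CPM but not after median of ratios scaling, which left 0 higher and 7 lower.

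Few dopamine neuron genes were called between the sides with identifier format as the only covariate. Of 20 tested genes 0 were higher and 2 lower (median 0.04), against 23.6% and 9.28% of all genes. Th ran from 581 through 1629 to 3460.1 CPM in high libraries, against 577, 1833 and 3934 CPM in low libraries (-0.07 ± 0.16, limma adjusted p = 0.753), and Slc6a3, the dopamine transporter gene, from 246 through 704 to 1243 CPM in high libraries, against 116.5, 558 and 1292 CPM in low libraries (0.33 ± 0.21, limma adjusted p = 0.225). Both sides covered nearly the same range for either gene. The 2 that were lower are developmental factors, Foxa2 (-0.53 ± 0.14, limma adjusted p = 0.0028) and Lmx1a (-0.42 ± 0.13, limma adjusted p = 0.0112), and 4 were lower under median of ratios scaling. With the interpeduncular score as a covariate 11 of the 20 were lower and 0 higher, among them Nr4a2 (-0.54), Aldh1a1 (-0.46) and Ddc (-0.47). With the interpeduncular, oxidative phosphorylation and Y-linked scores together 16 were lower and 0 higher (median -0.43). Of all 15545 genes 650 were lower with the interpeduncular score and 1151 with the 3 scores together. Oprm1, the mu opioid receptor gene, which in the ventral tegmental area is best known from GABA neurons, was low but higher in high libraries (medians of 3.36 CPM in high and 1.25 CPM in low libraries, 0.89 ± 0.20, limma adjusted p = 0.000499), and Oprk1 and Oprl1 did not pass. Oprm1 no longer passed with the interpeduncular score (0.57, limma adjusted p = 0.0659), where Oprk1 was lower (-0.28, limma adjusted p = 0.0126).

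Some markers of other cells were called, beside 23.6% higher and 9.28% lower among all genes tested. Of 9 astrocyte genes 4 were higher and 1 lower, led by the intermediate filament gene Gfap (medians of 1747 CPM in high and 819 CPM in low libraries, 1.12 ± 0.19, limma adjusted p = 8.01e-06) and the water channel gene Aqp4 (0.63). Their summed level ran from 5622 to 12636 CPM in high and from 4396 to 10114 CPM in low libraries. Of 11 oligodendrocyte genes 0 passed in either direction with CPM and 3 were lower after median of ratios scaling. Microglial genes (6 of 9 higher) and endothelial genes (4 of 7 higher) differed by 0.26 or less for each called gene, and 2 of each list were higher after median of ratios scaling. Of the 14 oxidative phosphorylation genes 0 were higher and 7 lower (median -0.16), and 12 were lower after median of ratios scaling, but 0 with the interpeduncular score as a covariate (median -0.018). Cytosolic ribosomal protein genes did not pass (0 of 12). Xist exceeded 20 CPM in 19 high and 13 low libraries, and the summed Y-linked genes did so in 12 high and 19 low libraries, of which 1 high and 2 low libraries had both. With the Y-linked sum as a covariate 5919 genes were called. The part of cell composition and of sex in the differences was not tested. Without that covariate 0 of the 5 sex-linked genes were called. Among the smaller lists, 1 of 4 cholinergic or motor genes was higher and 2 were lower, and after median of ratios scaling 0 were higher and 2 lower. Of 5 hypothalamic or mammillary genes 3 were lower with either scaling. Of 7 oligodendrocyte precursor genes 2 were higher and 0 lower, against 1 higher and 1 lower after median of ratios scaling. With either scaling 1 of 6 mural, 1 of 7 meningeal, 1 of 5 cortical, 1 of 2 ependymal, 1 of 8 immediate early and 1 of 3 opioid genes were higher. With CPM the mural, meningeal, cortical and immediate early shares were below the 23.6% of all genes. The shares higher of the precursor and cholinergic genes were near it. With the interpeduncular score as a covariate 0 of the mural, meningeal, cortical, immediate early, opioid and cholinergic genes were higher, and 1 each of the cholinergic, hypothalamic, cortical and opioid genes was lower. No choroid plexus gene (0 of 3) or erythrocyte gene (0 of 4) was called.

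Total estimated counts ran from 16.5 to 37.1 M (M stands for 1e6, median 23.1 M) in the high side and from 15.2 to 48.1 M (median 25.3 M) in the low side. More than 100 CPM of Slc17a7, the cortical glutamate transporter gene, was found in 1 high and 2 low libraries, of which hexadecimal replicate 25 of the low side had 1064 CPM, and hexadecimal replicate 75 of the low side had 11987 CPM of the choroid plexus gene Ttr. The labels call 2 high and 5 low libraries relabelled or recovered. No gene was called for a difference between sides that depended on identifier format (0% of 15546, limma interaction with Benjamini-Hochberg adjustment, smallest adjusted p = 0.9999; 356 genes had an unadjusted p below 0.05, and 415 after median of ratios scaling).

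The 81 libraries of neither side lie between the sides in the same ranking by Slc32a1 and cover a narrower range of Slc32a1. In them the slope of log2(CPM + 1) on that of Slc32a1 was called for 163 of 15545 genes (1.05%), 107 positive and 56 negative. Of these 163 genes 160 were also called between the sides, all 160 in the same direction. They are 98.2% of the slope calls and 3.13% of the calls between the sides. Of all genes tested 32.9% were called between the sides. Gad1 had a slope of 1.599 (limma adjusted p = 0.0188), and Gad2 had -0.34 (limma adjusted p = 0.93). Lhx5 (1.94), Lhx1 (1.73), Sox14 (1.74), Pnoc (1.86), Htr1a (2.54), Otp (3.60), Cacng5 (3.12) and Pax3 (2.74) passed as well, and the slopes of Gabrb2 (-0.94) and Kcnc2 (-1.11) passed as negative ones. All 15 leading higher genes had positive slopes, 6 of them called, and 14 of the 15 leading lower genes had negative slopes, none of them called, the exception being Ndrg3-ps1 (1.73).

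The genes whose slope had the smallest adjusted p in these 81 libraries were Rgma, which encodes a repulsive guidance molecule (0.81 ± 0.14, limma adjusted p = 0.00234), and Gal3st3, a sulfotransferase gene (0.67 ± 0.12, limma adjusted p = 0.00234). Next were the acid-sensing channel gene Asic4 (1.14 ± 0.22, limma adjusted p = 0.0056) and the homeodomain gene Irx1 (1.82 ± 0.36, limma adjusted p = 0.00881). Between the sides Rgma differed by 0.53, Gal3st3 by 0.30, Asic4 by 0.98 and Irx1 by 1.13. These 4 were named for their slopes after their values were seen.

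**Figure D5:**
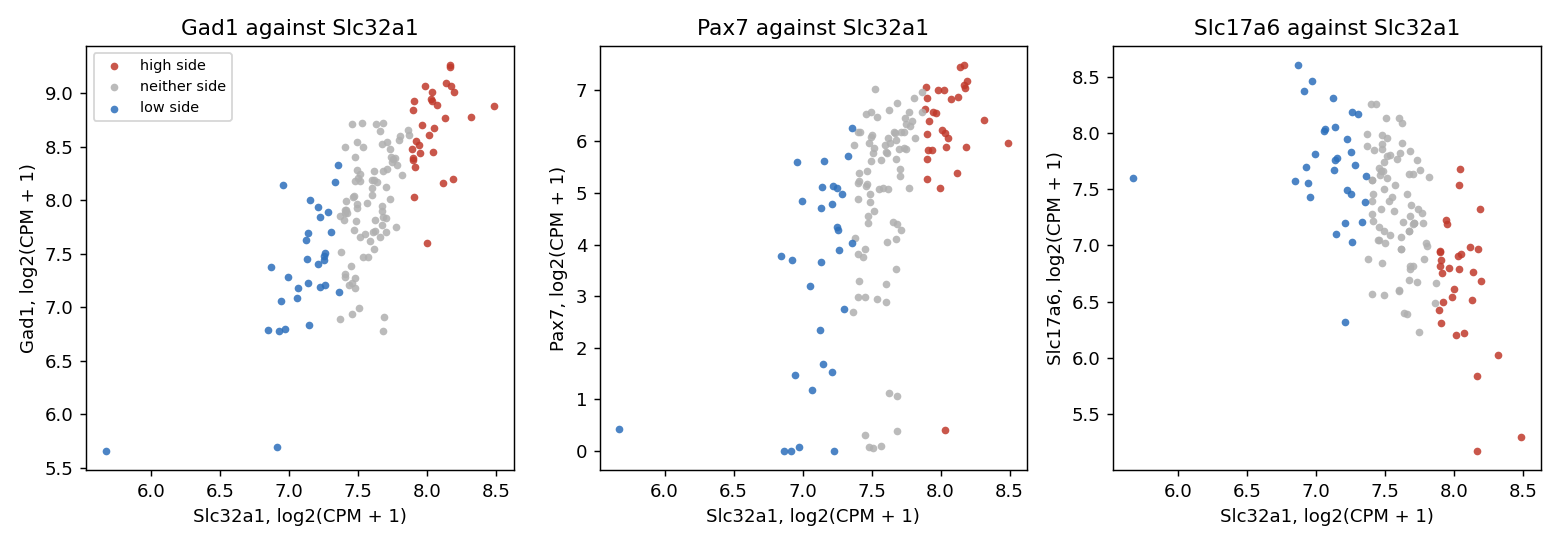
Gad1 (left), Pax7 (middle) and Slc17a6 (right) against Slc32a1, all as log2(CPM + 1), in the 141 libraries with Th; red points are the high side, grey points neither side and blue points the low side. Gad1 climbs across all 3 sets, Pax7 is spread widely on the low side and in 5 grey and 1 red point lies under 1 CPM, and Slc17a6 declines.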

How the data were processed

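PolyA RNA of the posterior ventral tegmental area was described for 183 samples, of which 152 have values and the other 31 are labelled as removed. The deposited table holds log2 values, which the authors made with kallisto 0.48 per the submitters' processing notes. Its values behave as log2(estimated count + 1), unscaled, because totals differ between libraries and 55.7% of low back-transformed values (under 100) are whole within 0.001. The sources used here give neither the unit in words, nor the genome build, nor strand. For 38278 of 38354 genes the symbol is in the GRCr8 reference table, and 99.98% of their positions are an end of that gene. The number of columns of other samples is 0.

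Values were back-transformed, scaled to 1e6 per library and expressed as log2(CPM + 1). Genes entered with a mean of at least 1 over the 141 libraries with Th of 10 CPM or more (15545 genes without Slc32a1). The 30 highest and 30 lowest libraries by Slc32a1 were fitted with limma 3.58.1 (R 4.3.3), with identifier format as a covariate, a mean trend and Benjamini-Hochberg adjustment. The library of another identifier form had its own level and did not bear on the difference. The side by format interaction and the slope on Slc32a1 in the 81 libraries of neither side were fitted likewise. Only the fit of high against low libraries was tested on simulated counts, with sides assigned at random. The interaction and slope fits were not. Unscaled estimated counts were not tested with a count model, because the deposited unit is a log2 value.

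Named were the 15 largest differences in each direction past an adjusted p of 0.05 with the same direction in both formats, Gad1, Gad2 and members of 33 gene lists, and some of the genes these rules pick are not reported here. Libraries, lists and rules were chosen with earlier results of these data known. Each library with values carries its own identifier in its title. The labels do not state further how animals and dissections map to libraries, so p-values measure the spread between these libraries. Alternatives covered scaling, pseudocount, filter, covariates, the number of libraries a side and left-out libraries.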

Additional observations from a re-analysis of the deposited data

How the results depend on the processing

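Gad1 kept its direction and side of the threshold under every alternative run, between 1.14 and 1.65. The count of 5108 genes was 3060 with decimal and 1701 with hexadecimal identifiers only, where fewer libraries entered, 2959 with libraries ranked after median of ratios scaling, 1880 with the interpeduncular score and 3076 with the interpeduncular, oxidative phosphorylation and Y-linked scores together; the cause of the last 3 was not tested. Gad2 passed with the depth as a covariate (0.61, limma adjusted p = 0.0339) and with the Y-linked sum (0.63, limma adjusted p = 0.0384), and reversed to -0.086 without libraries under 50 CPM of Gad2, a setting that picks libraries by the tested gene itself and so is no test of it; over its alternatives the adjusted p ran from 0.0339 to 0.789. Of the checks of the 30 leading genes 694 kept the call and 18 lost it with the same direction (Ndrg3-ps1, Cartpt, Tph2, Slc6a4 and Cabp7). Gata3 and Abat, named in the report, also lost the call. Gata3 lost it within each format, with 40 libraries a side and without libraries of high Tph2 or low Gad2. Abat lost it within hexadecimal identifiers. Further named genes lost the call with the interpeduncular score, among them Pax5, Vip, Oprm1, Gabrb2 and Glra3. Tnr and Vamp2 lost it after median of ratios scaling. The covariate scores and the settings that leave out libraries by Tph2, Gad2 or Pax7 level, and hexadecimal replicate 25, were chosen after seeing the data. No paired analysis was possible because the labels give no shared replicate numbers. At the lowest depth, 15.2 M counts, 1 CPM stands for about 15 counts, and it stands for more in the deeper libraries.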
